A study of Arabidopsis thaliana with 7 samples.

Results

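The comparison set immature tricellular pollen (TCP) of Arabidopsis thaliana against bicellular pollen (BCP), on 2 arrays of each stage, or 4 of the 7 ATH1 arrays analysed, across the 22746 probe sets left after the control probe sets were set aside. The arrays were chosen by their labels alone. All plants were of ecotype Ler-0 with no genetic modification, and they were grown on compost in a growth room at 21 °C with 16 h of light. Each TCP and BCP array read the RNA of spores pooled from the buds of many plants and separated on a Percoll gradient. The replicate populations of plants were grown independently. The isolates were not pure stages: by the study's account TCP also held some bicellular grains, while BCP also held some tetrads, microspores and tricellular grains. The other arrays, 2 of uninucleate microspores (UNM) and 1 of mature pollen grains (MPG), came from the same ecotype. They served as earlier and later stages, and the UNM arrays also served for the spread. By the study's account microspores came from the same kind of gradient, while mature pollen was isolated from open flowers.

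Bicellular pollen is a large vegetative cell that encloses a small generative cell. The second pollen mitosis divides the generative cell into the sperm cells, and the grain is then tricellular. The vegetative cell meanwhile prepares for dehydration and for the rapid, polar growth of the pollen tube, which needs a supply of wall material, a directed cytoskeleton and heavy membrane traffic, and a pollen tube can start to grow on proteins and RNA made before the grain is shed. The question of the comparison is which of these functions, read as transcripts, appear and which disappear between the stages. In RNA from whole grains, fewer cells of a type and less RNA in each cell cannot be told apart.

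More transcripts fell than rose. Signals are linear intensities with the same trimmed mean (100) on every array, and values under 20 were raised to 20 before log2 was taken. Of the 14364 probe sets that reached 40 on any array, 2726 (19.0%) rose in TCP relative to BCP and 5391 (37.5%) fell at an adjusted p under 0.05 in limma. The arrays of the stages did not overlap for any of these probe sets, but the calls rest on the same arrays, so this is no separate support. The median change was 3.07-fold among those that rose and 2.94-fold among those that fell, where a fold is the ratio of the means of log2 signals (geometric means) and is a lower bound for 502 rises and 1676 falls that reach the floor. The strongest changes had the opposite balance. At least 8-fold, 633 probe sets rose (4.41%) and 487 fell (3.39%), and at least 32-fold 116 rose and 7 fell. Counted as genes, with the brightest probe set where a gene has several, 1546 of 8162 tested genes rose (18.9%) and 3008 fell (36.9%), and these shares are the background for the gene groups below.

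The split between rises and falls moved with the scaling of the arrays. The median tested probe set differed by -0.33 on the log2 scale, by 0.01 after quantile normalization, by 0.02 after scaling to the median and by -0.67 after scaling to the spiked hybridization controls. Quantile normalization gave 3812 rises and 4262 falls, and scaling to the median gave 3894 rises and 4143 falls. No probe set called here took the opposite call under any of these scalings. The spiked controls left 965 rises and 2839 falls. Their own geometric mean signals were 456.2 and 643.1 on the TCP arrays, against 249 and 696.3 on the BCP arrays. They thus differed between replicates of 1 stage, and the part of this in the lost calls was not tested.

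**Figure D1:**
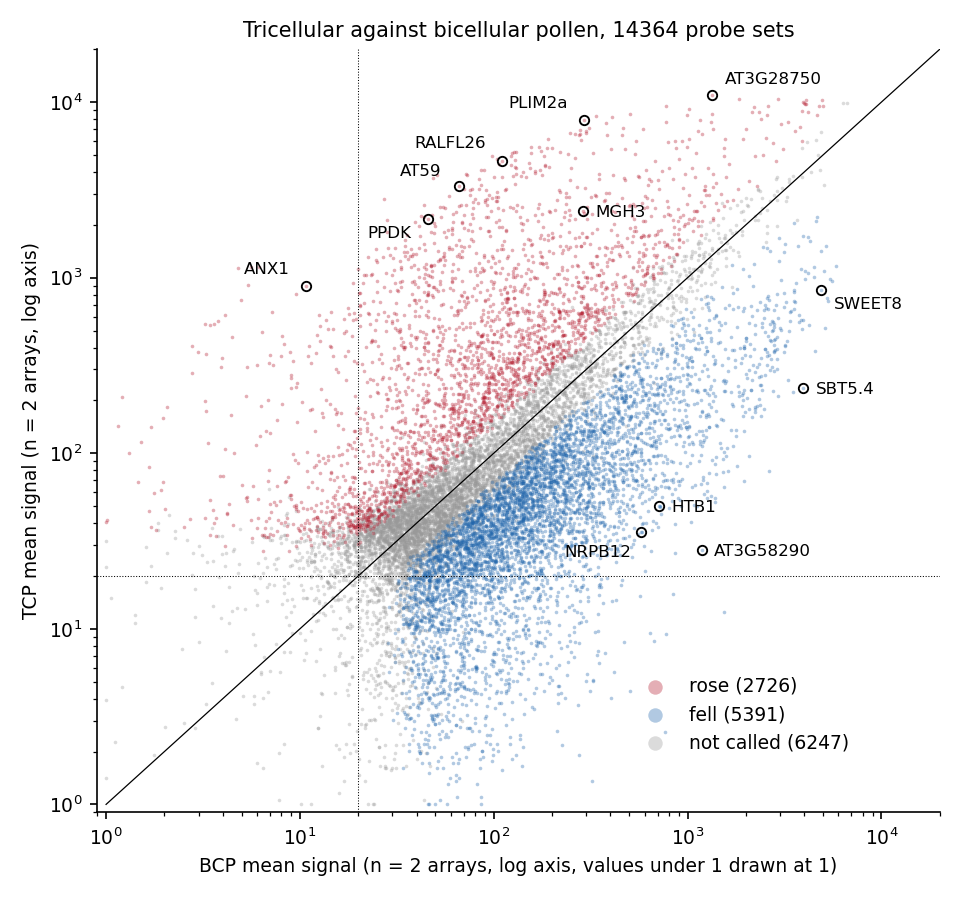
Mean signal on the 2 TCP arrays (vertical, log axis) against the 2 BCP arrays (horizontal, log axis) for the 14364 tested probe sets, red where TCP was higher, blue where it was lower and grey where neither was called. Dotted lines mark the floor of 20 and the diagonal marks equal signals. The 2726 probe sets that rose lie above the diagonal and the 5391 that fell lie below it, and the circled genes are described in the text.

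The probe sets that rose held most of the measured signal at TCP. They made up 62.1% and 63.5% of all signal on the TCP arrays, against 16.4% and 15.9% on the BCP arrays. Those that fell made up 12.3% and 11.2% on the TCP arrays, against 54.6% and 54.2% on the BCP arrays. Both sets were called from these same arrays, so the direction of these shifts follows from the choice and only their size is described. The signal also became more concentrated: the 100 brightest probe sets held 17.28% and 19.32% of it on the TCP arrays, against 10.34% and 13.99% on the BCP arrays. Fewer probe sets reached 40 at TCP, with 9028 and 9542, against 10581 and 11428 at BCP.

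Some of the brightest genes of the arrays were among these rises and falls. AT3G28750 gave 10639.6 and 11352.9 on the TCP arrays, against 1750 and 928 on the BCP arrays (8.63-fold, adjusted p = 0.00052), and AT3G07820 gave 9132 and 11767 on the TCP arrays, against 1806 and 1864 on the BCP arrays (5.65-fold, adjusted p = 0.00023). Neither locus carries a description in the tables used here. Among the brightest genes of BCP was SWEET8, a sugar transporter needed for a normal pollen wall. It gave 871 and 820.0 on the TCP arrays, against 3692 and 6095 on the BCP arrays (5.61-fold lower, log2 difference -2.49 with SE 0.33, adjusted p = 0.0013), so that both TCP arrays lay well below both BCP arrays. The subtilase SBT5.4, a secreted type of protease, gave 215 and 258 on the TCP arrays, against 2916 and 4973 on the BCP arrays, and this 16.2-fold fall (adjusted p = 0.00035) was the deepest of the 3 falls among 6 tested subtilases, of which 1 was left without BCP replicate 2 or TCP replicate 1.

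A transcript was counted as switched on when it lay under 40 on both BCP arrays and at 80 or more on both TCP arrays, and as switched off in the reverse case. By this rule 298 probe sets were switched on, or 1.31% of all 22746, and 903 were switched off, or 3.97%. The switched-on set had medians of 286.6 and 283.3 on the TCP arrays, against 22.4 and 21.1 on the BCP arrays. The switched-off set had medians of 22.5 and 20.9 on the TCP arrays, against 143 and 135.9 on the BCP arrays. Most of it was already present in microspores, since 845 of the 903 reached 80 on both UNM arrays. In contrast 276 of the 298 switched-on probe sets were under 40 on both UNM arrays. The medians across all stages were 13.5 and 14.6 at UNM and 433 at MPG for the switched-on set, and 167.6 and 165.3 at UNM and 29.4 at MPG for the switched-off set.

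**Figure D2:**
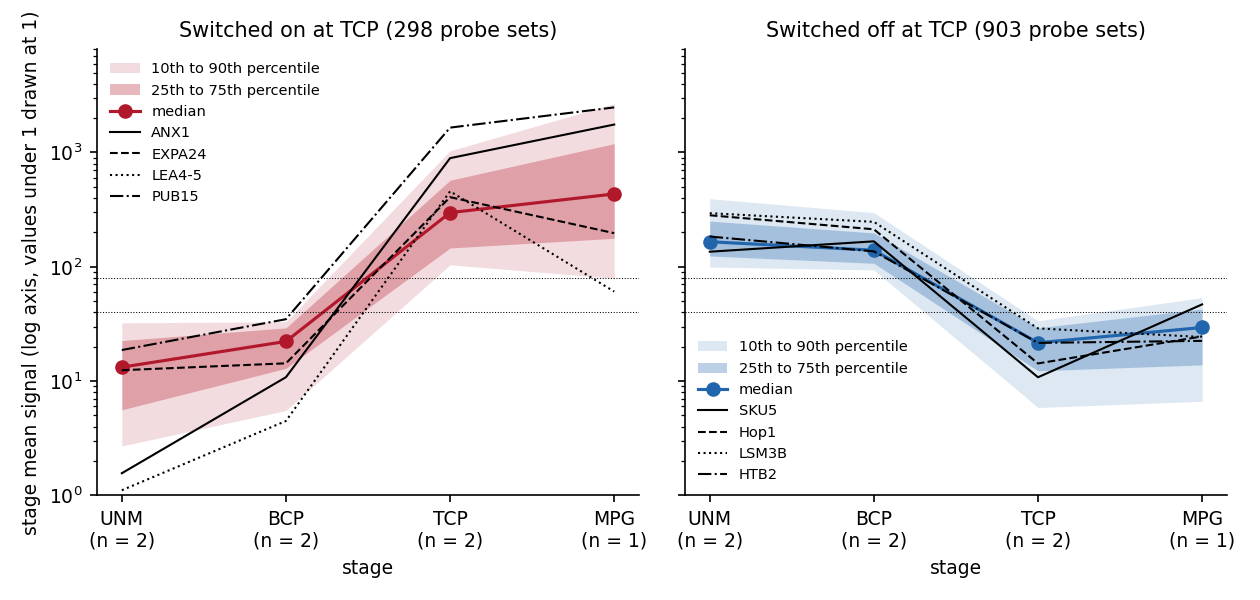
Mean signal by stage (log axis; 2 arrays each of UNM, BCP and TCP and 1 of MPG) of the 298 probe sets switched on (left) and the 903 switched off (right), with the median as a coloured line, the spread over probe sets as bands and chosen genes in black. Dotted lines mark the limits of 40 and 80. The switched-on set was low at UNM and BCP and stayed high at MPG, except for genes such as LEA4-5. The switched-off set was present at UNM and stayed low at MPG.

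Most of the 15 genes with the largest rises had only a locus number here, so their functions were not read. The largest change among genes with a name or locus was at AT3G17060, a locus with no description here, which gave 2147 and 2108 on the TCP arrays, against 38.1 and 18.4 on the BCP arrays (at least 77.1-fold, adjusted p = 7.1e-05). AT4G33390 gave 1853 and 1800 on the TCP arrays, against 27.1 and 28.99 on the BCP arrays (65.2-fold). Annotated genes among the 15 largest rises were the pectate lyase-like gene AT59, the serine carboxypeptidase-like gene scpl38 and PPDK. PPDK encodes pyruvate orthophosphate dikinase, which makes phosphoenolpyruvate from pyruvate. Its signals were 2070 and 2237 on the TCP arrays, against 59.4 and 31.8 on the BCP arrays (49.5-fold, log2 difference 5.63 with SE 0.31, adjusted p = 8e-05), and it reached 6554 on the MPG array. The gene scpl38 gave 940.0 and 1354 on the TCP arrays, against 7.04 and 5.34 on the BCP arrays (at least 56.4-fold, adjusted p = 6.1e-05).

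Genes of wall loosening and wall synthesis were among those that rose. Expansins, which loosen the bonds between wall polymers, had 19 measured members, of which 10 were tested, 4 rose and none fell, with a median difference of 0.73 on the log2 scale beside -0.31 over all tested genes. EXPB5 gave 2511 and 2676 on the TCP arrays, against 84.2 and 102 on the BCP arrays (28.1-fold, log2 difference 4.81 with SE 0.18, adjusted p = 6.1e-05). EXPA4 and EXPA24 were switched on: EXPA4 gave 235 and 169 on the TCP arrays, against 10.1 and 3.62 on the BCP arrays (at least 9.97-fold). It stood at 2642 on the MPG array, while EXPA24, with 373 and 439.8 on the TCP arrays, against 9.65 and 18.9 on the BCP arrays, was lower there, at 197.

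Among pectin enzymes 4 of 8 were tested and 2 rose, of which 1 was left after scaling to the spiked controls, with a floor of 40 and without either UNM array, BCP replicate 1 or TCP replicate 2. The pectate lyase-like gene AT59 gave 3379 and 3277 on the TCP arrays, against 82.1 and 49.7 on the BCP arrays (52.1-fold, log2 difference 5.70 with SE 0.27, adjusted p = 6.6e-05), with both TCP arrays far above both BCP arrays. Cellulose synthase-like enzymes build the backbones of wall polysaccharides, and 3 of 6 tested members rose and none fell, with 1 rise left after scaling to the spiked controls. CSLC12 of this group gave 1173 and 1449 on the TCP arrays, against 84.8 and 94.2 on the BCP arrays (14.6-fold, adjusted p = 7.1e-05). TBL20, a member of a family that acetylates wall polysaccharides, was switched on with 836 and 616 on the TCP arrays, against 32.2 and 19.4 on the BCP arrays (at least 28.3-fold). XTH29, of the enzymes that cut and rejoin xyloglucan, was switched on as well, at 174 and 224 on the TCP arrays, against 33.2 and 32.3 on the BCP arrays (6.02-fold, adjusted p = 0.00048).

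The GH9 endoglucanases, which cut glucan chains, held members of both directions. Of 12 tested genes 4 rose (33.3%) and 4 fell (33.3%), beside 18.9% and 36.9% over all tested genes, so the share of falls was near the background. The falls numbered 2 without BCP replicate 2 or TCP replicate 2. GH9A4 gave 2644 and 2446 on the TCP arrays, against 61.5 and 70.6 on the BCP arrays (38.6-fold, adjusted p = 6.4e-05). GH9B11 and GH9C3 were switched on, GH9B11 with 479 and 661 on the TCP arrays, against 7.04 and 20.3 on the BCP arrays. In the other direction, GH9B7 gave 44.04 and 47.6 on the TCP arrays, against 187 and 199 on the BCP arrays (4.21-fold lower, adjusted p = 0.00021), and GH9A3 gave 108 and 118 on the TCP arrays, against 392 and 391 on the BCP arrays (3.48-fold lower). The other 2 falls, of GH9B18 and GH9C2, were not called after quantile normalization or with a floor of 40. SKU5, a membrane-anchored wall protein known from the direction of root growth, was switched off, at 10.3 and 11.3 on the TCP arrays, against 162 and 172 on the BCP arrays (at least 8.34-fold lower, adjusted p = 7.6e-05).

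Some genes of cell-to-cell signaling at the tube tip appeared at TCP. The receptor kinases ANX1 and ANX2, which keep the growing pollen tube intact, were switched on, and they were the only called members among 4 tested of the 13 measured receptor kinases. ANX1 gave 844 and 939.5 on the TCP arrays, against 20.9 and 0.705 on the BCP arrays (at least 43.5-fold, log2 difference 5.44 with SE 0.17, adjusted p = 6.1e-05). ANX2 gave 1079 and 1004 on the TCP arrays, against 24.4 and 18.6 on the BCP arrays (at least 47.1-fold, adjusted p = 6.1e-05). FER and THE1, related receptors known from vegetative organs, were measured and did not reach 40 on any array.

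RALF peptides are small secreted peptides that act on receptors of the ANX1 type. Of 5 tested members 2 rose and 1 fell. RALFL26 gave 4369 and 4883 on the TCP arrays, against 137 and 84.3 on the BCP arrays (42.9-fold, log2 difference 5.42 with SE 0.30, adjusted p = 8e-05). RALFL25 gave 3846 and 4556 on the TCP arrays, against 146 and 115 on the BCP arrays (32.3-fold, adjusted p = 9.6e-05). These were far above their BCP signals, whereas RALFL24 gave 2.52 and 0.908 on the TCP arrays, against 38.82 and 46.21 on the BCP arrays, a fall not called with a floor of 40. The cysteine-rich peptide gene LCR72 gave 4865 and 5700 on the TCP arrays, against 179 and 172 on the BCP arrays (30.0-fold, adjusted p = 6.1e-05), while its relative LCR69 gave 20.3 and 17.3 on the TCP arrays, against 67.3 and 67.7 on the BCP arrays (at least 3.35-fold lower). CML42, a calmodulin-like calcium sensor, gave 3157 and 2780 on the TCP arrays, against 352 and 311 on the BCP arrays (8.96-fold, adjusted p = 8.1e-05). Its list, with the glutamate receptors, had 3 rises and 2 falls among 9 tested genes. There were 6 rises and 1 fall after quantile normalization, 5 and 0 after scaling to the median and 1 and 1 after scaling to the spiked controls. The falls were of CML41 and of CML23, which gave 5.24 and 7.46 on the TCP arrays, against 188 and 51.2 on the BCP arrays.

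Every tested cation/H+ exchanger rose, 4 of the 7 measured, and 3 of them also after scaling to the spiked controls. These proteins of the CHX family move potassium and protons across membranes. CHX15 gave 1206 and 1202 on the TCP arrays, against 32.99 and 56.98 on the BCP arrays (27.8-fold, log2 difference 4.80 with SE 0.29, adjusted p = 9.4e-05). The genes chx28 and CHX6B were switched on, with 198 and 265 for chx28 on the TCP arrays, against 14.98 and 10.8 on the BCP arrays, and 225 and 213 for CHX6B on the TCP arrays, against 22.3 and 33.2 on the BCP arrays. CHX19 was already present, at 3045 and 3254 on the TCP arrays, against 1066 and 1378 on the BCP arrays (2.60-fold, adjusted p = 0.0021). Sugar transporters differed in direction. AtVEX1, the SWEET5 transporter of the vegetative cell, gave 3918 and 2606 on the TCP arrays, against 372 and 218 on the BCP arrays (11.2-fold, adjusted p = 0.00045), while SWEET8 fell as described, and of 11 tested SWEET genes 3 rose and 1 fell, with 1 rise left without BCP replicate 1 or TCP replicate 2 and 5 rises after quantile normalization.

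**Figure D3:**
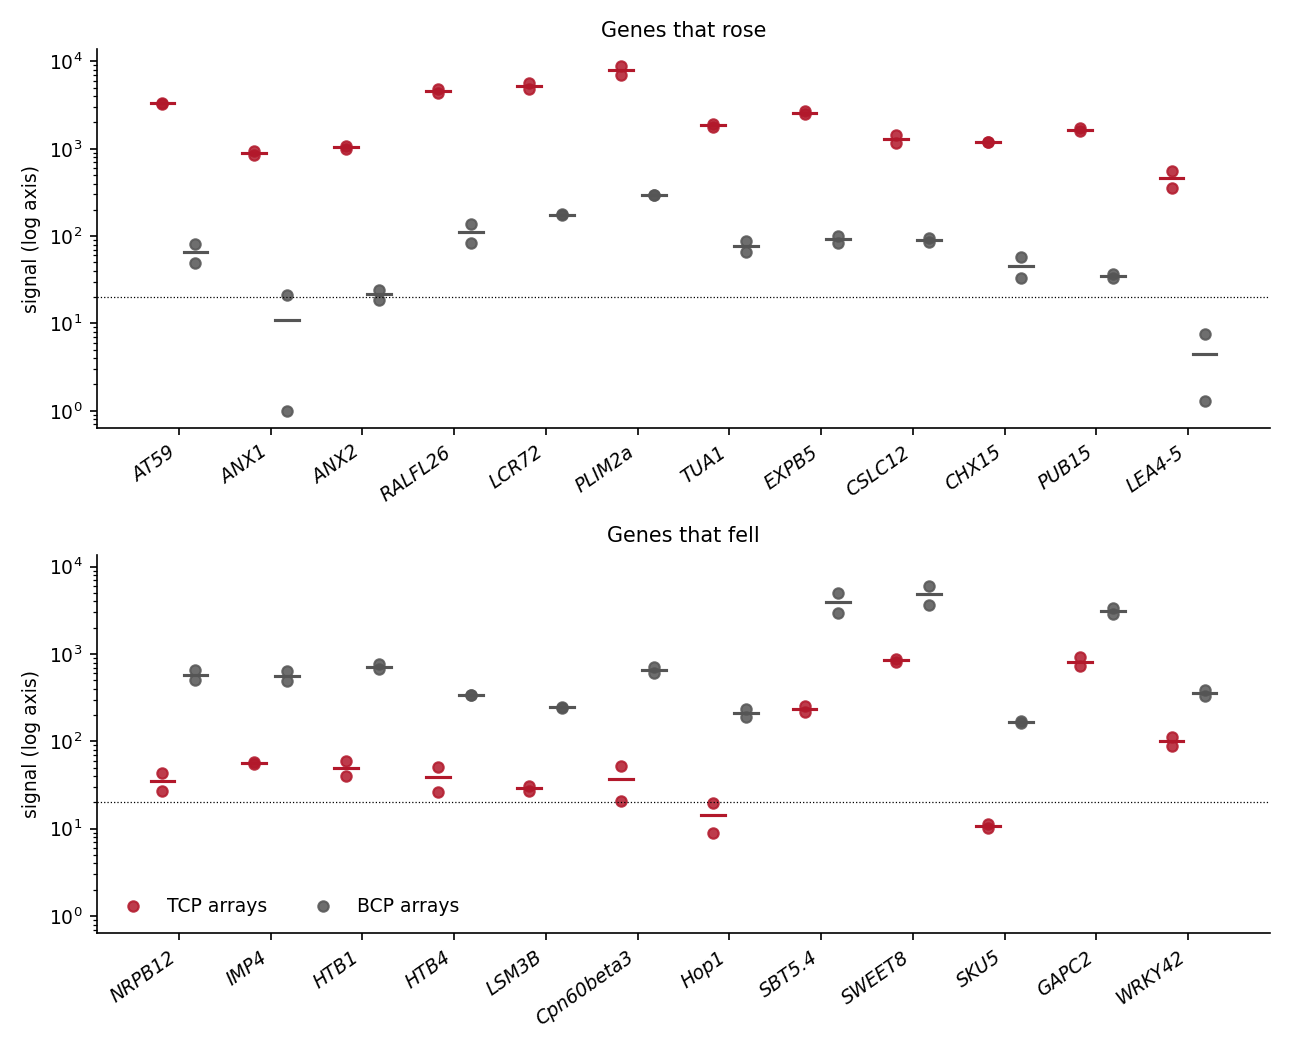
Signal on each array (points, log axis, values under 1 drawn at 1) of 12 genes that rose (upper panel) and 12 that fell (lower panel), with the TCP arrays in red left of the BCP arrays in grey, and the mean of each stage as a bar. The dotted line is the floor of 20. In each gene both TCP arrays lie on the same side of both BCP arrays.

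Cytoskeletal families held members that moved in opposite directions. Of 13 tested actins, LIM proteins and myosins, 7 rose and 3 fell, with a median of 1.55 on the log2 scale. PLIM2a and PLIM2b encode LIM proteins of pollen that bundle actin filaments. PLIM2a gave 7036 and 8760 on the TCP arrays, against 293 and 294 on the BCP arrays (26.8-fold, log2 difference 4.74 with SE 0.26, adjusted p = 8.1e-05), and PLIM2b gave 3129 and 2682 on the TCP arrays, against 356 and 314 on the BCP arrays (8.66-fold). Their relative WLIM2a was switched off, with 28.9 and 31.9 on the TCP arrays, against 223 and 184 on the BCP arrays (6.68-fold lower, adjusted p = 0.00014). ACT11, an actin of reproductive tissues, gave 3628 and 3650 on the TCP arrays, against 698 and 563 on the BCP arrays (5.80-fold, adjusted p = 0.0017). The 2 other falls, of WLIM2b and CRK, were lost after scaling to the median and when either BCP array was left out.

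NET proteins bind actin filaments to membranes. NET2D gave 924 and 819.5 on the TCP arrays, against 68.8 and 88.5 on the BCP arrays (11.2-fold, adjusted p = 0.00033), and NET2C was switched on with 160.5 and 236 on the TCP arrays, against 3.92 and 2.52 on the BCP arrays. The 3 members of the NET1 branch fell instead, NET1B for instance to 6.15 and 4.44 on the TCP arrays, against 51.4 and 58.3 on the BCP arrays (at least 2.74-fold lower). The falls of NET1A and NET1C depended on the setting, that of NET1A on the floor and that of NET1C on quantile normalization, and none of the 3 falls was called after scaling to the spiked controls.

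Tubulins, the subunits of microtubules, rose in 4 of 7 cases and fell in none, with 2 rises left after scaling to the spiked controls. TUA1, an alpha-tubulin of pollen, gave 1912 and 1790 on the TCP arrays, against 87.8 and 66.04 on the BCP arrays (24.3-fold, log2 difference 4.60 with SE 0.22, adjusted p = 7e-05). TUB9 gave 3773 and 3881 on the TCP arrays, against 437 and 384 on the BCP arrays (9.34-fold, adjusted p = 8e-05). The SPIRAL1 family of small microtubule-associated proteins split as the LIM family did. SP1L4 gave 4501 and 5961 on the TCP arrays, against 154 and 107 on the BCP arrays (40.2-fold, log2 difference 5.33 with SE 0.31, adjusted p = 8.7e-05), while SPR1 gave 107 and 170.0 on the TCP arrays, against 589 and 679.5 on the BCP arrays (4.69-fold lower, adjusted p = 0.0026). SP1L3 moved with SPR1, at 79.02 and 112 on the TCP arrays, against 329.9 and 341 on the BCP arrays (3.56-fold lower).

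Genes of vesicle fusion and Rab transport were among those that rose. Of 10 tested SNAREs, Sec1 proteins and Rab GTPases 6 rose and none fell, with a median of 0.77 on the log2 scale, and 2 of them rose after scaling to the spiked controls. KEU, a Sec1 protein that acts on vesicle fusion at the cell plate, gave 444 and 508 on the TCP arrays, against 87.6 and 112 on the BCP arrays (4.80-fold, adjusted p = 0.00031). PRA1.B4, of a family that receives Rab GTPases at membranes, gave 2349 and 2440 on the TCP arrays, against 157 and 103 on the BCP arrays (18.8-fold, adjusted p = 0.0001). Of 10 tested members of this family 4 rose and 2 fell, PRA1.B1 and PRA1.G1, with a median of -0.06 on the log2 scale. After scaling to the median 4 rose and none fell, and after scaling to the spiked controls 2 rose and none fell. The 7 exocyst subunits, which tether vesicles to the plasma membrane, had 2 falls and no rise here, 2 falls and 1 rise after quantile normalization, 2 rises and no fall after scaling to the median and no call after scaling to the spiked controls. Their direction is therefore not settled by these arrays. ARF-like GTPases again differed by member. ARLA1C gave 886 and 1267 on the TCP arrays, against 79.2 and 91.1 on the BCP arrays (12.5-fold, adjusted p = 0.0001), and ARLA1D gave 731 and 474 on the TCP arrays, against 91.8 and 116 on the BCP arrays (5.72-fold). ARLA1A was switched off, at 5.54 and 15.7 on the TCP arrays, against 106 and 99.97 on the BCP arrays (at least 5.13-fold lower, adjusted p = 0.00014).

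**Figure D4:**
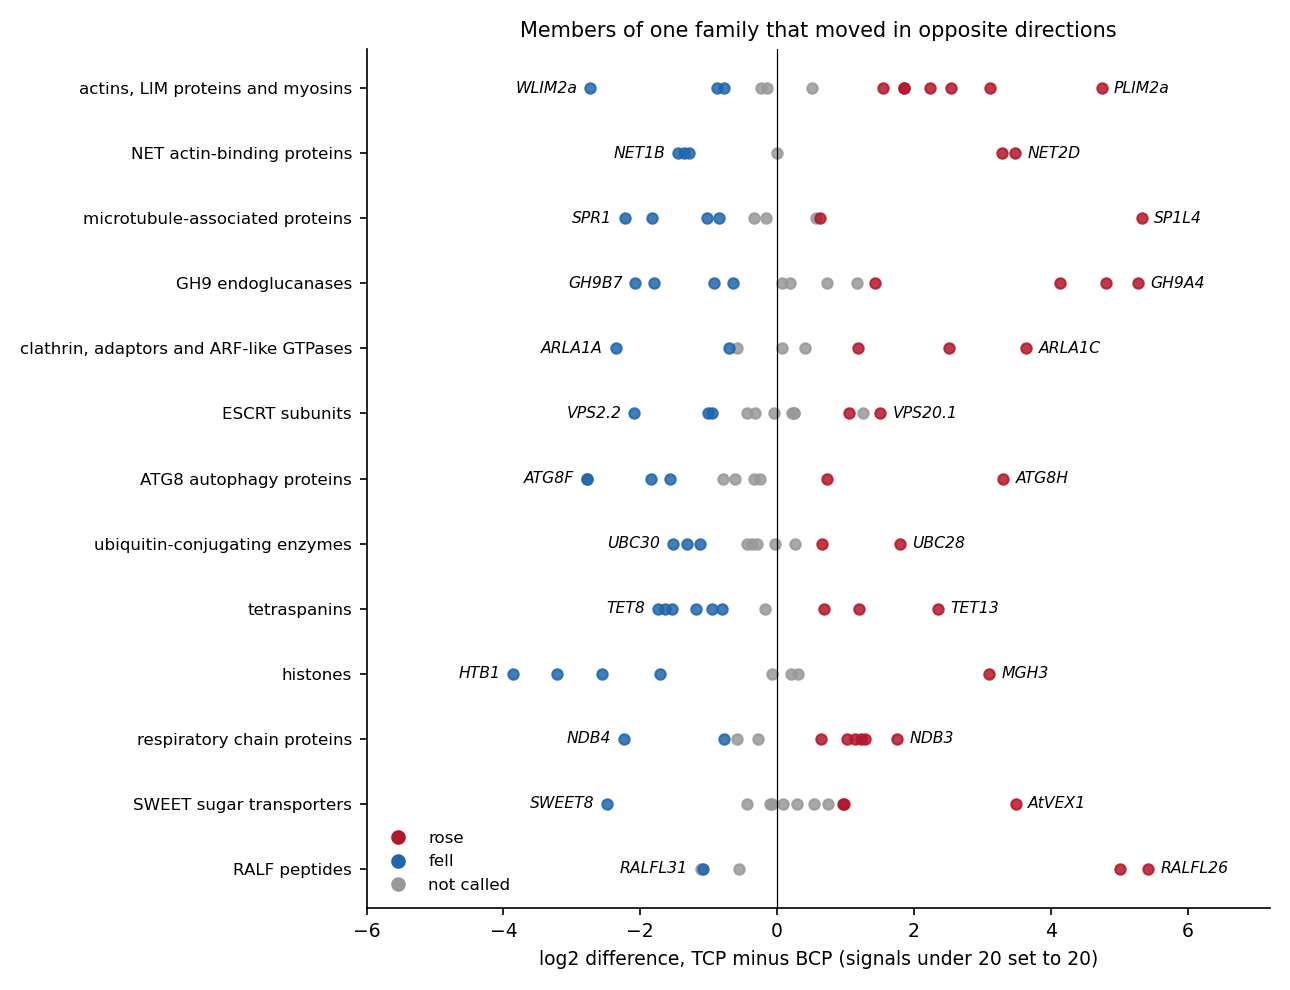
Log2 difference, TCP minus BCP, of each tested gene (point) in 13 families that held members moving in opposite directions, coloured by call, with the names of the highest and the lowest member. Positive values are higher in TCP, and the families were chosen because they held both directions. In the LIM, NET and SPIRAL1 proteins, for instance, PLIM2a, NET2D and SP1L4 lie on the right and WLIM2a, NET1B and SPR1 on the left.

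Transcription factors as a class had about as many rises as falls, while factors known from late pollen rose. The 419 transcription factor genes measured here are fewer than the study counts on the array. Of these 214 were tested, 52 rose (24.3%) and 45 fell (21.0%), beside 18.9% and 36.9% over all tested genes. The median of 0.01 on the log2 scale became 0.46 after quantile normalization and -0.43 after scaling to the spiked controls. Quantile normalization gave 80 rises and 33 falls. The late pollen MADS-box factors and bZIP34 rose in 7 of 8 tested cases. This list was chosen as late pollen factors, with earlier results of these data known, so its rises are no independent result. MADS-box factors of the AGL65 and AGL66 type form complexes that control late pollen transcripts. AGL66 gave 2255 and 2190 on the TCP arrays, against 229 and 231 on the BCP arrays (9.66-fold, log2 difference 3.27 with SE 0.16, adjusted p = 7.1e-05), and AGL65 gave 404 and 444 on the TCP arrays, against 46.8 and 44.4 on the BCP arrays (9.29-fold, adjusted p = 0.00018). AGL29 and BZIP34 were switched on. AGL29 gave 334 and 379.8 on the TCP arrays, against 6.44 and 15.7 on the BCP arrays (at least 17.8-fold), and BZIP34, known from pollen wall and lipid development, gave 258 and 261 on the TCP arrays, against 11.97 and 22.4 on the BCP arrays (at least 12.3-fold, adjusted p = 6.5e-05).

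Among the families listed by the study, C2H2 zinc finger genes had 9 rises and 6 falls of 27 tested, and C3H zinc finger genes had 14 rises and 10 falls of 59. The C3H rises numbered 8 without either TCP array and 23 after quantile normalization, and their falls numbered 5 without TCP replicate 2 and 6 without TCP replicate 1 or BCP replicate 1. AT5G04390, a C2H2 gene, was switched on with 712 and 671 on the TCP arrays, against 22.7 and 18.3 on the BCP arrays (at least 32.4-fold, adjusted p = 6.1e-05). AT1G74990, listed as C3H, gave 112 and 115 on the TCP arrays, against 919 and 1110 on the BCP arrays (8.89-fold lower, adjusted p = 0.00011). All 4 tested WRKY genes, of a family known from defence and development, fell, with a median of -1.84 on the log2 scale, although the fall of ZAP1 was lost when either TCP array was left out. WRKY42 gave 111 and 88.8 on the TCP arrays, against 388 and 334 on the BCP arrays (3.62-fold lower, adjusted p = 0.001), and WRKY6 was switched off. The GARP gene AT2G01060 fell furthest among all transcription factors, to 8.06 and 1.41 on the TCP arrays, against 212 and 216 on the BCP arrays (at least 10.7-fold lower, adjusted p = 6.6e-05).

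Most RNA polymerase transcripts fell. Of 12 tested RNA polymerase subunits 11 fell and none rose, with a median of -1.78 on the log2 scale beside -0.31 over all tested genes, and 10 fell after quantile normalization. NRPB12, a small RNA polymerase subunit, gave 27.2 and 43.8 on the TCP arrays, against 501 and 656 on the BCP arrays (16.6-fold lower, log2 difference -4.05 with SE 0.28, adjusted p = 0.00015). NRPA2, the second largest subunit of RNA polymerase I, which makes ribosomal RNA, gave 46.9 and 49.4 on the TCP arrays, against 270.5 and 267 on the BCP arrays (5.58-fold lower, adjusted p = 0.00012). NRPB7 and NRPE7 were switched off. The falls covered subunits of several RNA polymerases. Mediator and THO subunits, which act with RNA polymerase II and on the export of its products, had 3 falls and no rise among 8 tested genes (37.5%), near the share over all genes, and 2 falls and 1 rise after quantile normalization.

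Splicing and LSM proteins, which process messenger RNA, fell in 12 of 15 tested cases, with a median of -2.26 on the log2 scale and 4 members switched off. LSM3B gave 30.5 and 27.2 on the TCP arrays, against 244 and 250.3 on the BCP arrays (8.57-fold lower, log2 difference -3.10 with SE 0.17, adjusted p = 7.7e-05). MAC3A, of a complex associated with the spliceosome, gave 32.7 and 49.5 on the TCP arrays, against 203 and 255 on the BCP arrays (5.66-fold lower, adjusted p = 0.00086). The U2AF factors, which recognize the end of an intron, were not called: ATU2AF35A, ATU2AF65A and U2AF35B differed by 0.84, -0.39 and -0.38 on the log2 scale. Of these, ATU2AF65A gave 170 and 160 on the TCP arrays, against 235 and 197 on the BCP arrays.

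All 7 nucleolar and ribosome-assembly genes fell, with a median of -2.65 on the log2 scale, and 6 of them fell after quantile normalization. AT5G14520, which encodes PESCADILLO, a factor of large ribosomal subunit assembly, gave 22.9 and 7.97 on the TCP arrays, against 528 and 608 on the BCP arrays (at least 26.5-fold lower, log2 difference -4.73 with SE 0.18, adjusted p = 6.1e-05). IMP4, known from yeast as a protein of the small subunit processome, gave 57.5 and 55.6 on the TCP arrays, against 632 and 494 on the BCP arrays (9.88-fold lower, adjusted p = 0.00012). RRP41, of the exosome that trims RNA, gave 62.4 and 75.3 on the TCP arrays, against 419 and 504 on the BCP arrays (6.71-fold lower, adjusted p = 0.00018). In each gene both TCP arrays were several-fold below the lower BCP array.

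Of the core translation factors in the study's list 32 were measured here, fewer than the study counts on the array. They had 19 falls and 2 rises among 29 tested genes, with a median of -1.23 on the log2 scale. Quantile normalization left 16 falls and 2 rises, and scaling to the spiked controls left 7 falls and 1 rise. The falls included elongation and initiation factors. AT5G19510, listed as a subunit of elongation factor EF1B, gave 1044 and 623 on the TCP arrays, against 3638 and 3480 on the BCP arrays (4.41-fold lower, adjusted p = 0.0012), and AT5G12110, listed under the same factor, was switched off with 22.1 and 19.8 on the TCP arrays, against 153 and 179.5 on the BCP arrays (at least 7.89-fold lower). AT5G44320, an eIF3d gene, gave 156 and 126 on the TCP arrays, against 949 and 846 on the BCP arrays (6.39-fold lower, adjusted p = 0.00015). Both rises among the tested genes were eIF1 genes, which encode the factor that helps to find the start codon. The poly(A)-binding protein genes PAB6 and PAB7, which the study counts as late, are not described here. AT1G54290 gave 1507 and 1810 on the TCP arrays, against 82.7 and 69.5 on the BCP arrays (21.8-fold, adjusted p = 6.5e-05), and AT5G54940 gave 312 and 375 on the TCP arrays, against 165 and 133 on the BCP arrays (2.31-fold, adjusted p = 0.0036).

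Chaperones, which fold new proteins, fell in 9 of 15 tested cases and rose in none, with a median of -1.93 on the log2 scale. Cpn60beta3, a subunit of the plastid chaperonin, gave 52.9 and 20.6 on the TCP arrays, against 606 and 706 on the BCP arrays (19.8-fold lower, log2 difference -4.31 with SE 0.44, adjusted p = 0.00052). Hop1, which hands proteins between heat shock proteins, was switched off at 19.6 and 8.97 on the TCP arrays, against 189.6 and 236 on the BCP arrays (at least 10.6-fold lower, adjusted p = 7.6e-05). Hop2 fell too, and Hop3 was not called, at -0.65 on the log2 scale.

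**Figure D5:**
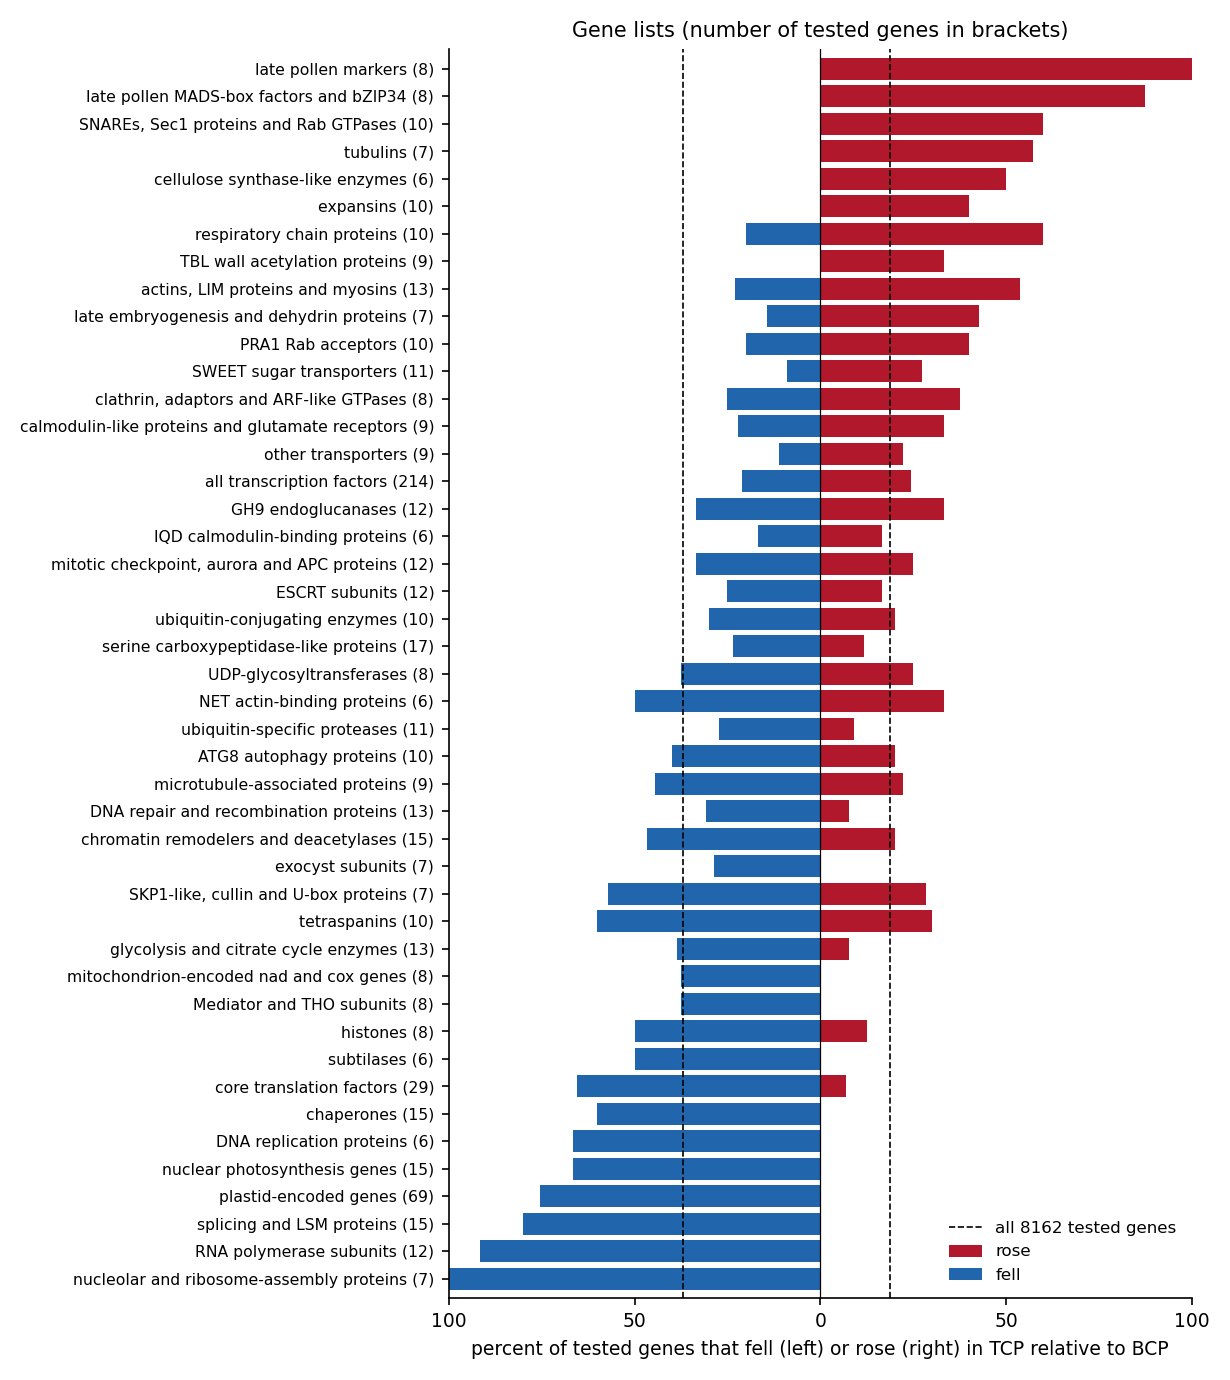
Share of tested genes that rose (red, right) or fell (blue, left) in TCP relative to BCP in gene lists with at least 6 tested members (their number in brackets), ordered by rises minus falls. Dashed lines give the shares over all 8162 tested genes, 18.9% risen and 36.9% fallen. The late pollen markers and late pollen MADS-box factors, both chosen as late pollen genes, lie at the top. The RNA polymerase, splicing and ribosome-assembly lists lie at the bottom.

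Genes of DNA replication and of the division itself did not move as a block. Of 6 tested replication genes 4 fell and none rose, with a median of -0.63 on the log2 scale, and 2 fell and 1 rose after quantile normalization. Without BCP replicate 1 or TCP replicate 1 there were 2 falls. POLA3, of the primase that starts DNA strands, gave 34.3 and 28.7 on the TCP arrays, against 79.95 and 93.1 on the BCP arrays (2.75-fold lower, adjusted p = 0.0013). Of 12 checkpoint, aurora and anaphase-promoting genes 3 rose and 4 fell, with a median of -0.12 on the log2 scale that became 0.31 after quantile normalization. A single fall was left after quantile, median or spiked-control scaling and without BCP replicate 2, and 2 falls were left without BCP replicate 1 or TCP replicate 2. The 3 rises were the aurora kinases, which act on chromosomes and the spindle in mitosis. AUR2 gave 1126 and 1789 on the TCP arrays, against 118 and 101 on the BCP arrays (13.02-fold, log2 difference 3.70 with SE 0.29, adjusted p = 0.0002), and AUR1 gave 1970 and 1806 on the TCP arrays, against 317 and 361 on the BCP arrays (5.57-fold, adjusted p = 0.00014). AUR3 gave 187 and 226 on the TCP arrays, against 98.05 and 91.01 on the BCP arrays (2.17-fold, adjusted p = 0.0037). BUB3.1, a spindle checkpoint gene, was switched off, at 31.2 and 24.9 on the TCP arrays, against 149 and 114 on the BCP arrays (4.67-fold lower, adjusted p = 0.0005). Both AUR1 and AUR2 were at least as high on the MPG array, at 2731 and 2202.

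Histones changed by type. The 4 H2B genes of the list, which encode a core histone, fell. HTB1 gave 40.5 and 59.3 on the TCP arrays, against 669 and 760.2 on the BCP arrays (14.6-fold lower, log2 difference -3.86 with SE 0.24, adjusted p = 0.00011), and HTB4 gave 26.6 and 50.8 on the TCP arrays, against 341 and 344 on the BCP arrays (9.31-fold lower, adjusted p = 0.0005). HTB2 was switched off, and HTB11 fell to 1.41 and 1.41 on the TCP arrays, against 75.1 and 57.3 on the BCP arrays. MGH3, the histone H3 variant of the male gametes, rose. It gave 2372 and 2435 on the TCP arrays, against 356 and 222 on the BCP arrays (8.54-fold, log2 difference 3.10 with SE 0.28, adjusted p = 0.00033), and stood at 2897 on the MPG array. The centromeric histone gene HTR12 and the linker histone genes HIS1-3 and HON4 were not called, at -0.07, 0.30 and 0.21 on the log2 scale.

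The other sperm and generative cell genes measured were tetraspanins, small membrane proteins. TET12 gave 109 and 123 on the TCP arrays, against 46.6 and 54.8 on the BCP arrays (2.29-fold, adjusted p = 0.0025), while TET11 gave 524 and 481 on the TCP arrays, against 1505 and 1413 on the BCP arrays (2.91-fold lower, adjusted p = 0.0012). Over all tetraspanins 3 of 10 tested genes rose and 6 fell, with 3 falls left after scaling to the median or to the spiked controls and without TCP replicate 2, and TET13 was switched on with 101 and 109.8 on the TCP arrays, against 18 and 21.1 on the BCP arrays. None of the study's core cell-cycle loci could be matched to a probe set with a named gene here, so cyclins and cyclin-dependent kinases were not analysed.

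Plastid transcripts fell as a group. Of 69 plastid-encoded genes, all tested, 52 fell and none rose, with a median of -1.31 on the log2 scale, and 45 fell after quantile normalization, 30 after scaling to the spiked controls and 32 without TCP replicate 2. The plastid ribosomal protein gene rps18 gave 44.6 and 44.1 on the TCP arrays, against 306 and 396 on the BCP arrays (7.85-fold lower, log2 difference -2.97 with SE 0.19, adjusted p = 0.00012), and rps2 gave 107 and 99.2 on the TCP arrays, against 592 and 475 on the BCP arrays (5.14-fold lower, adjusted p = 0.00095). In contrast, atpE of the plastid ATP synthase gave 3024 and 3720 on the TCP arrays, against 3735 and 6392 on the BCP arrays, and was not called (adjusted p = 0.22). Nuclear photosynthesis genes followed, with 10 of 15 fallen and none risen, and 5 fallen after quantile normalization, 3 after scaling to the spiked controls and 6 without TCP replicate 1. AT4G38100, which encodes the thylakoid protein CURT1D, was switched off at 18.8 and 9.98 on the TCP arrays, against 447 and 365 on the BCP arrays (at least 20.2-fold lower, adjusted p = 6.6e-05). PSBW, of photosystem II, gave 90.5 and 79.7 on the TCP arrays, against 268 and 306 on the BCP arrays (3.38-fold lower, adjusted p = 0.00061).

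Nuclear genes of respiration had more rises than falls. Of 10 tested nuclear genes of the respiratory chain and its side branches 6 rose and 2 fell, with a median of 0.84 on the log2 scale, and after scaling to the spiked controls none of the rises was called. CYTC-2 and CYTC-1 encode cytochrome c, the mobile electron carrier. CYTC-2 gave 3124 and 3483 on the TCP arrays, against 1473 and 1239 on the BCP arrays (2.44-fold, adjusted p = 0.0018). CYTC-1 gave 2051 and 2053 on the TCP arrays, against 3114 and 3967 on the BCP arrays (1.71-fold lower, adjusted p = 0.026), a call lost after scaling to the median and without either TCP array. The summed signal of the list was 13060.8 and 12883.1 on the TCP arrays, against 8242 and 9101 on the BCP arrays. Of 8 tested nad and cox genes of the mitochondrial genome 3 fell and none rose, with 1 fall left without TCP replicate 1, and cox2 gave 66.3 and 82.7 on the TCP arrays, against 160.1 and 171 on the BCP arrays (2.23-fold lower, adjusted p = 0.003).

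Enzymes of glycolysis and the citrate cycle had 5 falls (38.5%) and 1 rise among 13 tested genes, a share of falls near the 36.9% of all tested genes. There were 3 falls without BCP replicate 2, 2 after scaling to the spiked controls and 8 with the replicate number as a block. GAPC2, a cytosolic glyceraldehyde-3-phosphate dehydrogenase, gave 917 and 725 on the TCP arrays, against 2905 and 3354 on the BCP arrays (3.83-fold lower, log2 difference -1.94 with SE 0.20, adjusted p = 0.00051). PGM (AT1G78050), a phosphoglycerate mutase, gave 38.4 and 48.7 on the TCP arrays, against 209 and 166 on the BCP arrays (4.31-fold lower, adjusted p = 0.0005). ACLA-1, a subunit of the citrate lyase that supplies acetyl-CoA, was the gene that rose, with 1505 and 1404 on the TCP arrays, against 709 and 512 on the BCP arrays (2.41-fold, adjusted p = 0.004).

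Families of protein turnover held both rises and falls. Of 10 autophagy genes, which but for ATG3 encode the ATG8 protein that marks autophagic membranes, 2 rose (20%) and 4 fell (40%), close to the shares of 18.9% and 36.9% over all tested genes. A single rise was left without TCP replicate 2 or any UNM or BCP array. ATG8H gave 642 and 774 on the TCP arrays, against 68.4 and 74.8 on the BCP arrays (9.86-fold, adjusted p = 0.00013). ATG8F gave 97.3 and 95.6 on the TCP arrays, against 603 and 728 on the BCP arrays (6.88-fold lower, adjusted p = 0.00012), and ATG8G gave 83.7 and 100.2 on the TCP arrays, against 583 and 673 on the BCP arrays (6.84-fold lower). PUB15, a U-box ubiquitin ligase, was switched on with 1581 and 1718 on the TCP arrays, against 36.4 and 33.1 on the BCP arrays (47.5-fold, log2 difference 5.57 with SE 0.21, adjusted p = 6.1e-05). The ubiquitin-conjugating enzymes, with 2 rises (20%) and 3 falls (30%) among 10 tested, also lay near the background, and 1 rise was left without BCP replicate 1 or TCP replicate 2. UBC28 gave 1968 and 2240 on the TCP arrays, against 608 and 604 on the BCP arrays (3.46-fold), and UBC30 gave 649 and 696 on the TCP arrays, against 1691 and 2218 on the BCP arrays (2.88-fold lower, adjusted p = 0.0027). Over 52 lists of functions and families with measured members, 23 held both a called rise and a called fall of at least 2-fold, 14 held such rises only, 13 held such falls only and 2 held neither. Over all 14364 tested probe sets 2097 rose and 4378 fell at least 2-fold. What lists of these sizes would hold at such shares was not computed, so the count of 23 is a description only.

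Some genes of desiccation tolerance were already high at TCP. LEA proteins protect cells that dry out, and 3 of 7 tested LEA and dehydrin genes rose and 1 fell. LEA4-5 was switched on, at 561 and 354 on the TCP arrays, against 7.64 and 1.31 on the BCP arrays (at least 22.3-fold, log2 difference 4.48 with SE 0.25, adjusted p = 8.3e-05), and stood at 60.6 on the MPG array. AT2G46140, which encodes LEA27, gave 3464 and 3767 on the TCP arrays, against 718 and 690.4 on the BCP arrays (5.13-fold, adjusted p = 0.00024). SETH3, of a group named for defects in pollen germination, gave 2362 and 2070 on the TCP arrays, against 178 and 93.5 on the BCP arrays (17.1-fold, adjusted p = 0.00048), and the 3 other tested SETH genes were not called.

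Most changes lay on the path between microspore and mature pollen, which were measured on arrays that do not enter the difference. The MPG array was above the UNM mean for 94.2% of the probe sets that rose, against 37.2% of all tested, and below it for 98.4% of those that fell, against 62.8% of all tested. MPG rests on 1 array, so no test was made of it, and its pollen was isolated in another way, from open flowers. Of the probe sets that rose, 1487 (54.6%) were higher still on the MPG array than on both TCP arrays. For 335 of the 2726 both TCP arrays were at least 2 times the MPG array. Genes of this kind, chosen after their values were seen, include LEA4-5, AtVEX1, CML42, CHX19, XIC, NDB3 and QQS. XIC, a myosin motor, gave 1105 and 1216 on the TCP arrays, against 307 and 332 on the BCP arrays, and 332 on the MPG array. QQS, a gene known from starch content, gave 404 and 383 on the TCP arrays, against 45.4 and 23.2 on the BCP arrays, and 63.9 on the MPG array. NDB3, a side-branch NADH dehydrogenase of mitochondria, gave 1213 and 687 on the TCP arrays, against 269 and 272 on the BCP arrays, and 140.4 on the MPG array.

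Few of the transcripts that fell came back. The MPG array exceeded both TCP arrays for 2289 (42.5%) of the 5391 that fell, yet it reached the lower BCP array for 122. Of the 903 switched-off probe sets 631 were under 40 on the MPG array and 7 were at 80 or more. AT5G39850 was such a case, switched off with 11.3 and 7.46 on the TCP arrays, against 894 and 661 on the BCP arrays (at least 38.4-fold lower, adjusted p = 6.4e-05), and at 120.1 on the MPG array. The largest fall among genes with a name or locus, at AT3G58290, went to 26.7 and 29.3 on the TCP arrays, against 1066 and 1301 on the BCP arrays (42.1-fold lower, adjusted p = 6.1e-05), and this locus stood at 152 on the MPG array. Of the 298 switched-on probe sets 11 were under 40 on the MPG array.

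The labels were set beside markers. The marker lists were chosen with earlier results of these data known, so they are not an independent check of the labels. All 8 late pollen markers rose, with summed signals of 15179.2 and 15194.8 on the TCP arrays, against 1271 and 1054 on the BCP arrays. Markers of other tissues were dim: the 4 tapetum markers summed to 113 and 105 on the TCP arrays, against 90.8 and 105 on the BCP arrays, and the 2 root hair markers to 62.2 and 94.9, against 48.4 and 67.9. Among the tapetum markers ATA27, AMS and SHT stayed under 40 on every array and EMS1 was not called. The 4 green tissue markers summed to 157 and 172 on the TCP arrays, against 261 and 292 on the BCP arrays, and the 5 meiocyte markers to 95.3 and 83.7, against 169 and 167. Both lists thus moved with the falls of photosynthesis and division genes, with LHCB4.1, SDS and ATMND1 as the members that fell and SPO11-2 as a meiocyte gene that rose, and their part in those results was not tested. The control probe sets for RNA integrity differed by replicate number rather than by stage, with a log2 ratio of the 3′ to the 5′ set of GAPDH of 1.06 and 3.19 on the TCP arrays, against 0.63 and 2.76 on the BCP arrays.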

How the data were processed

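RNA of pooled spores from 2 UNM, 2 BCP, 2 TCP and 1 MPG isolates was read on Affymetrix ATH1 arrays, 1 isolate an array. The authors deposited 1 linear intensity per probe set and array, scaled so that all arrays share a 2% trimmed mean of 100; the study names dChip for its own normalization, but no source used here says whether these values came from it. The 64 control probe sets were set aside, the arrays were brought again to that mean (by at most 1.008-fold), intensities under 20 were set to 20 and log2 was taken. The depth of an array is not a count, so the number of arrays limits the precision.

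The 14364 probe sets at 40 or more on at least 1 of the 7 arrays were fitted in limma 3.58.1 (R 4.3.3) with 1 mean a stage and no block, on 3 residual degrees of freedom, and the contrast TCP minus BCP was called at a Benjamini-Hochberg adjusted p under 0.05. Probe sets under 40 at BCP or at TCP could enter the test through arrays where they were higher, so shares among tested genes carry this filter. The fit was tested on simulated data. A fold is a ratio of geometric means, and a lower bound ("at least") where the stage with less signal has an array at the floor. Python 3.11.15, numpy 2.4.6, pandas 2.3.3, scipy 1.17.1 and matplotlib 3.10.9 did the rest.

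GEO's platform annotation, with symbols updated through RefSeq, gave 1 gene to 13513 probe sets, several to 503 and none listed to 8730. A gene with several probe sets is read by its brightest. Gene lists follow symbols and descriptions, or, for transcription factors, core translation factors and cell-cycle genes, the study's supplementary loci. The members and lists were chosen with earlier results of these data known. Genes were named where they were called and were among the 15 largest rises or falls, the 4 largest changes each way in a list, the 5 brightest at either stage, a marker, or named in the study's text. AT5G19510, XIC, QQS and members given as not called were added after their values were seen. Alternatives were other scalings (quantile, median, spiked controls, as deposited), other floors and filters, fewer arrays, a replicate block, a trended prior and a 2-fold minimum.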

Additional observations from a re-analysis of the deposited data

How the results depend on the processing

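The arrays give 2 values a stage, the isolates were mixtures of stages, and signals under about 20 carry no order, so small differences and changes of dim genes are the least certain. The counts of switched transcripts depend on the scaling and on the limits. Scaling to the spiked controls left 965 rises, 2839 falls and 131 probe sets switched on. Quantile normalization gave 514 probe sets switched off and scaling to the median gave 576. With limits of under 20 and at least 80, 95 were switched on and 279 off, and with under 40 and at least 160 the counts were 198 on and 289 off. The cause of these shifts was not tested.

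Leaving out 1 array at a time gave 2062 to 2726 rises, 4180 to 5391 falls, 316 to 401 probe sets switched on and 1068 to 1110 switched off. The highest counts of rises and falls are those without MPG. They equal the main counts, because a stage with 1 array adds nothing to the spread. The switch rule asks for fewer arrays when 1 is left out, so its counts could not fall below 298 and 903. The labels give the stages the same replicate numbers but do not say that a number marks a shared population. Deviations of same-numbered arrays correlated at 0.28 between TCP and BCP, and a fit with the replicate number as a block gave 3129 rises and 5870 falls. No probe set that rose or fell took the opposite call under any alternative. Of the named genes, 133 lost their call after scaling to the spiked controls, 34 after quantile normalization, 35 after scaling to the median, 51 with a floor of 40, 47 with no filter, 56 with a minimum of 2-fold, 58 without TCP replicate 1, 64 without TCP replicate 2, 50 without BCP replicate 1 and 44 without BCP replicate 2. Promoter motifs were planned and not run.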
